A study of Mus musculus with 16 samples.

Results

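The NR4A orphan nuclear receptors Nr4a1, Nr4a2 and Nr4a3 were read in mouse striatum from every probe set of a whole-transcriptome array that the platform annotation gives to exactly 1 of these 3 genes. That rule uses no measured value, but the 3 genes were chosen with earlier results of these data known. The rule gave 3 of the 18193 genes read on the array, by 10 of 34945 probe sets with a single gene symbol, of 45101 in all: 1 for Nr4a1, 6 for Nr4a2 and 3 for Nr4a3. The samples were 16 arrays of total RNA, 4 from each of 4 genotypes on a B6xCBA background. Wild-type mice were compared with R6/2 mice, a Huntington's disease model that carries the start of the human huntingtin gene with an expanded CAG repeat as a transgene. The 2 remaining groups were DREAM+/- mice, which carry 1 knockout allele of the calcium-binding transcriptional repressor DREAM (gene symbol Kcnip3), and R6/2 x DREAM+/- mice, which carry that allele together with the transgene. The study's title places these crosses in the question of whether loss of DREAM is part of a protective response in Huntington's disease. The sources used here do not give the age or sex of the mice, the part of Kcnip3 that the knockout removes, or whether RNA of several mice was pooled. The labels give striatal neurons as the cell type, but the RNA was prepared from whole striatum, so all cells of the dissected tissue contributed, and fewer cells of a type cannot be told apart from less RNA per cell.

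NR4A receptors are transcription factors of the nuclear receptor family whose ligand pocket is filled by bulky side chains, so that their activity is set mainly by how much of the protein is made. Their genes are immediate early genes: calcium and cyclic AMP signals that follow neuronal activity or dopamine switch them on within minutes, largely through the transcription factor CREB bound to cyclic AMP response elements. Nr4a1 (Nur77) and Nr4a2 (Nurr1) also pair with retinoid X receptors (RXR), and NR4A proteins bind an extended receptor site called NBRE. In striatum Nr4a1 is made by medium spiny neurons and follows dopamine and cortical input. Nr4a2 is best known as the factor that makes and keeps midbrain dopamine neurons, and in the forebrain it marks the claustrum and the deepest cortical layers.

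The sequences just before the transcription starts are shown because they hold the elements through which activity reaches these genes. Below are the 250 bases upstream of the RefSeq start of each gene on build GRCm38.p6, read 5′ to 3′ on the gene's own strand, with every TGACG or its reverse complement CGTCA in capitals. TGACG is the core that CREB reads in a cyclic AMP response element. The window of Nr4a1 is chr15:101266596-101266845 on the plus strand, within the annotated gene span of 101253902 to 101274795, so that other annotated transcripts start further upstream. The window of Nr4a2 is chr2:57124004-57124253, just outside the gene (57106830 to 57124003), which lies on the minus strand. The window of Nr4a3 is chr4:48045055-48045304 on the plus strand, and most of it lies within the annotated gene span of 48045078 to 48086447.

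Nr4a1: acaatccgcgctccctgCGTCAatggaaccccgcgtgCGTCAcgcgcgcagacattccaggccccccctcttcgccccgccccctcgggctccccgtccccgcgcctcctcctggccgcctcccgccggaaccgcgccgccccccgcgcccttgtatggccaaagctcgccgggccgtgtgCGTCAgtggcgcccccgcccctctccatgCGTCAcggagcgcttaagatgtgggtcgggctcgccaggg
Nr4a2: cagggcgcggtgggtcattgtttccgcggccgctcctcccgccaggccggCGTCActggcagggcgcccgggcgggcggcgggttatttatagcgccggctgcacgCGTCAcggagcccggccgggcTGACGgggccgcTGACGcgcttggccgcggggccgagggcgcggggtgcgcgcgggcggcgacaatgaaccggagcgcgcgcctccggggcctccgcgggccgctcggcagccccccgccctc
Nr4a3: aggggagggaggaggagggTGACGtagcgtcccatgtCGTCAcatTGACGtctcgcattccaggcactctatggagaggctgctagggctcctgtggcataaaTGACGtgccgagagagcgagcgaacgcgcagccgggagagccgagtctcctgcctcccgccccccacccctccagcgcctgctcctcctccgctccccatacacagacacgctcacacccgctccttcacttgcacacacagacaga

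Each of the 3 windows held 4 TGACG cores. Of 32851 upstream windows of the same length, of 27025 genes, 17.8% held at least 1 on either strand and 45, or 0.137%, held at least 4. The cores began 233, 213, 69 and 40 bases before the start in Nr4a1, 200, 144, 123 and 111 bases before it in Nr4a2, and 231, 213, 205 and 147 bases before it in Nr4a3. The unbroken palindrome TGACGTCA, found in 1.55% of all windows, was in none of the 3. GTCA, the core of the element that DREAM binds, overlaps CGTCA and occurred 4, 5 and 4 times in Nr4a1, Nr4a2 and Nr4a3, and 80.2% of all windows held it at least once and 11.4% at least 4 times. A MEF2 consensus, the site of another calcium-regulated activator, lay 167 bases before the start of Nr4a2 and in neither of the others, and 2.92% of all windows held one. AAAGGTCA, the NBRE that NR4A proteins bind, was in none of the 3 windows and in 1.34% of all. The serum response element core was likewise in none of the 3 and in 1.47% of all. The windows were GC-rich, at 74.4% in Nr4a1, 80% in Nr4a2 and 63.6% in Nr4a3 against a median of 52.4% over all windows. These matches describe letters in the reference and are not measured binding sites.

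**Figure D1:**
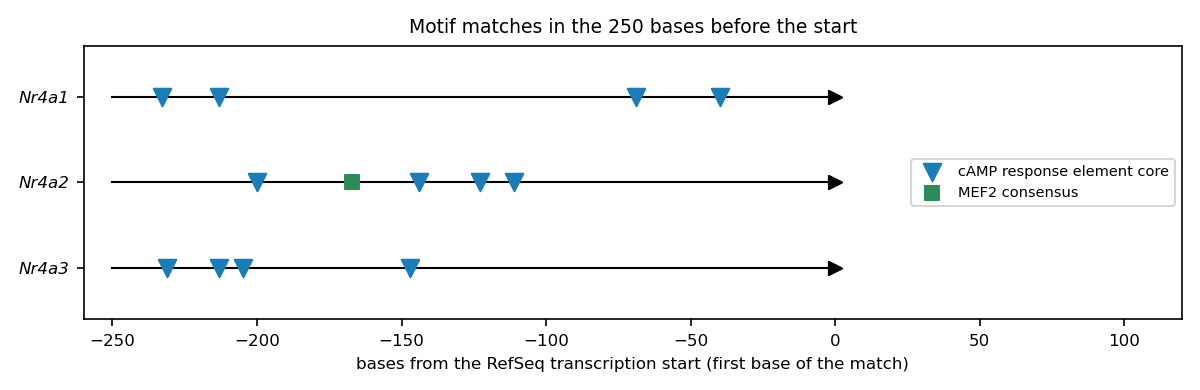
Positions of the TGACG core (triangles) and of the MEF2 consensus (square) in the bases before the RefSeq start (arrow) of Nr4a1, Nr4a2 and Nr4a3; the x axis gives bases from the start. Each gene has 4 cores, and those of Nr4a1 alone come within 69 bases of the start.

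The deposited values are log2 intensities, and a level is compared only within a probe set. Array medians lay between 6.54 and 6.58, and arrays of 1 genotype correlated with each other at 0.9906 to 0.998 over all probe sets. Kcnip3, the targeted gene, was lower in both groups with the knockout allele: its brighter probe set read 7.77 ± 0.04 (SD, n = 4) in DREAM+/- against 9.67 ± 0.24 in wild type, and 7.56 ± 0.12 in R6/2 x DREAM+/- against 9.11 ± 0.09 in R6/2. R6/2 also differed from wild type, by -0.55 with the brighter probe set (limma adjusted p = 0.000775) and by -0.54 with the dimmer one (0.00688). The level in DREAM+/- was 26.9% of wild type by the brighter probe set and 13% by the dimmer one. Both are below what 1 intact allele of 2 would give at unchanged output per allele, so the number of intact alleles rests on the labels alone, and the groups are named here as labelled. Xist, made from the inactive X chromosome, was low in R6/2 replicate 1, at 6.49 where 15 arrays had 11.04 to 12.16. The third principal component, with 13.4% of the variance, set R6/2 x DREAM+/- replicate 3 apart, at 34.5 against -13.4 to 4.48 elsewhere. Fits without these 2 arrays covered the NR4A probe sets, the markers of cortical projection and medium spiny neurons, and the other immediate early genes. Those results are given below with and without them where this changed a call or a count. Calls in the other gene lists were not refitted without them. The labels call the arrays biological replicates, and p-values measure the spread between them.

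Of the 10 NR4A probe sets, 8 had a mean over the 16 arrays above 6.354, the 40th percentile of all probe sets. The 2 below were 1433423_at of Nr4a2, with a mean of 5.09, and 1421079_at of Nr4a3, with a mean of 4.79. Nr4a1 was read by 1416505_at, and the brightest probe sets of the other genes were 1455034_at for Nr4a2 and 1438796_at for Nr4a3. These 3 carry most of the account below.

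Nr4a1, the member most tied to medium spiny neurons, read 10.87, 11.18, 11.18 and 10.67 in the wild-type arrays. DREAM+/- arrays read 10.55, 10.39, 10.33 and 10.15. R6/2 arrays read 10.61, 10.51, 9.29 and 9.36. Every DREAM+/- and R6/2 array lay below every wild-type array, and the R6/2 arrays fell into a pair near the DREAM+/- level and a pair below every other array. The R6/2 x DREAM+/- arrays read 9.93, 9.83, 10.04 and 10.04, below every DREAM+/- array and between the 2 R6/2 pairs. In order of their means the groups were wild type at 10.97 ± 0.25 (SD, n = 4), DREAM+/- at 10.36 ± 0.17, R6/2 x DREAM+/- at 9.96 ± 0.1 and R6/2 at 9.94 ± 0.71. The last 2 overlapped, and the steps from wild type to DREAM+/- and from there to R6/2 x DREAM+/- had no overlap but did not pass the test below.

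Nr4a2 ran differently. Its probe set 1455034_at read 9.62, 9.72, 9.66 and 9.51 in wild type and 9.55, 9.90, 9.78 and 9.44 in DREAM+/-, which overlap fully. R6/2 arrays read 8.05, 8.36, 8.52 and 8.61, all well below the other 3 groups. In R6/2 x DREAM+/- the arrays read 9.30, 9.24, 9.43 and 9.45, a narrow band above every R6/2 array and just under every wild-type array. The order of the means was DREAM+/- at 9.67 ± 0.21 (SD, n = 4), wild type at 9.63 ± 0.09, R6/2 x DREAM+/- at 9.36 ± 0.1 and R6/2 at 8.38 ± 0.25. Only the last step passed the test below.

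Nr4a3 (NOR-1), the third activity-induced member, followed Nr4a1 more than Nr4a2. Its probe set 1438796_at read 9.47, 9.75, 9.78 and 9.53 in wild type and 9.23, 8.85, 9.03 and 8.99 in DREAM+/-, with no overlap. R6/2 arrays read 9.09, 8.96, 8.34 and 8.15, and the same 2 replicates were low as for Nr4a1. The values of R6/2 x DREAM+/- were 8.63, 8.92, 9.0 and 8.96, within the range of R6/2 and overlapping DREAM+/-. The means were 9.63 ± 0.16 (SD, n = 4) in wild type, 9.03 ± 0.16 in DREAM+/-, 8.88 ± 0.17 in R6/2 x DREAM+/- and 8.63 ± 0.46 in R6/2. Of neighbours in that order only wild type and DREAM+/- had no overlap, and that step did not pass the test below.

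**Figure D2:**
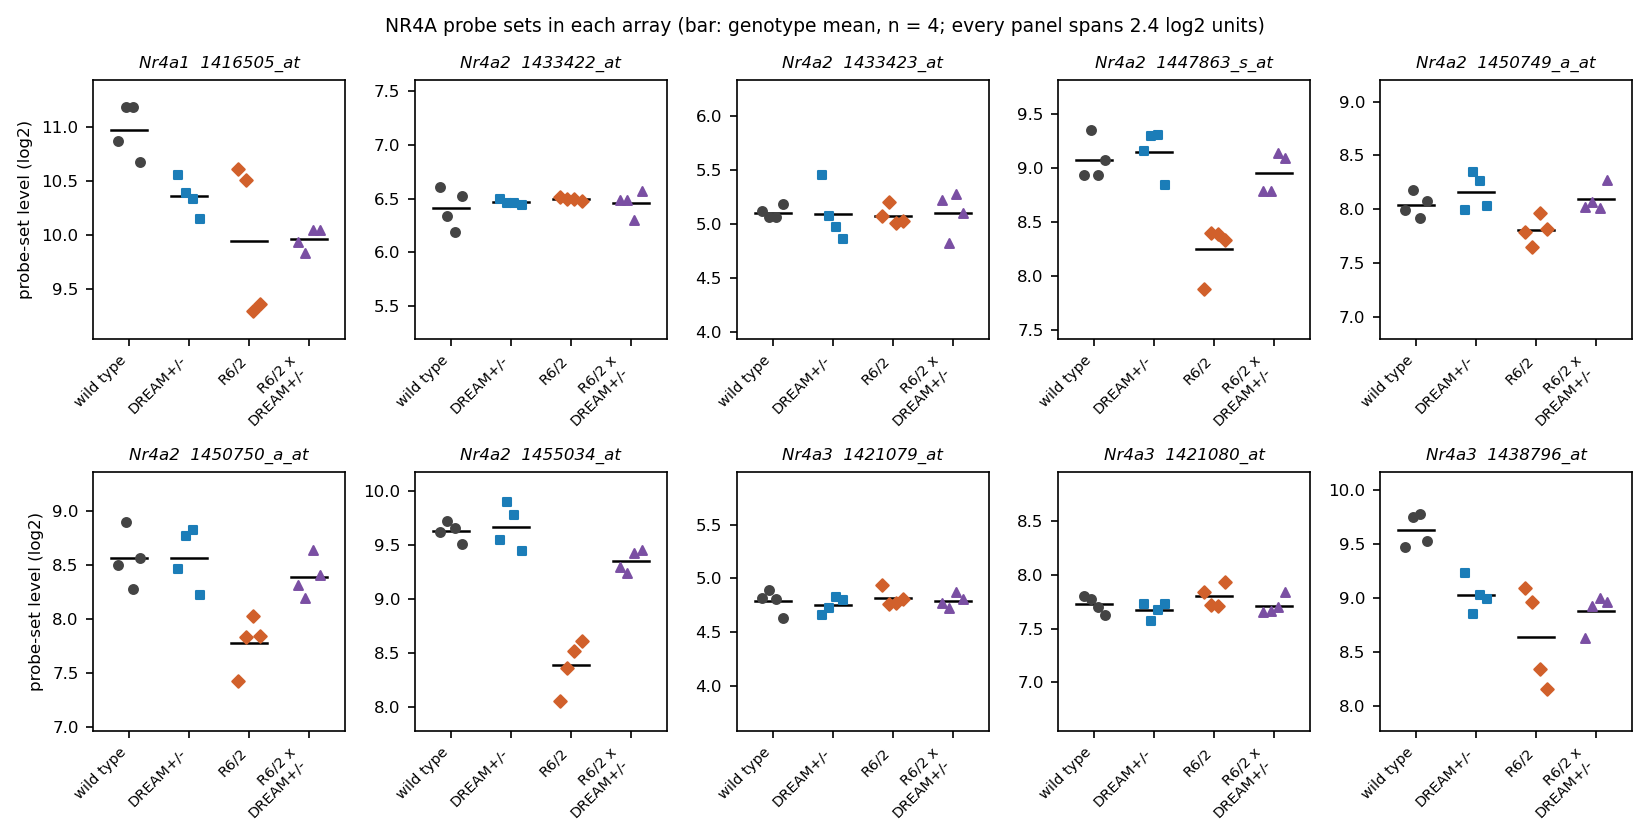
Log2 intensity of every NR4A probe set in each of the 16 arrays, by genotype, 1 panel per probe set; points are arrays and the bar is the mean of 4. Nr4a1 and Nr4a3 1438796_at have their highest mean in wild type, and Nr4a2 1455034_at has its lowest mean in R6/2.

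R6/2 against wild type asks what the disease transgene does with both DREAM alleles intact. Kcnip3 itself read lower there, and so did all 3 NR4A genes. By limma at an adjusted p under 0.05 over all 34945 probe sets, 5 of the 10 NR4A probe sets fell and 0 rose, where 13.2% of all probe sets passed in either direction and 6.42% fell. The same 5 had no overlap between the groups, which held for 7.91% of all probe sets in the lower direction. Nr4a1 fell by 1.03 (SE 0.24, 95% interval -1.54 to -0.53, limma adjusted p = 0.0079), to 48.9% of wild type. Nr4a2 by 1455034_at fell by 1.24 (SE 0.11, interval -1.48 to -1.01, limma adjusted p = 2.47e-06), to 42.3%, and stood 59th among all probe sets by p. Nr4a3 by 1438796_at fell by 1.0 (SE 0.17, interval -1.35 to -0.65, limma adjusted p = 0.000668), to 50.1%.

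The 6 probe sets of Nr4a2 did not give 1 answer. Beside 1455034_at, 1447863_s_at fell by 0.83 in R6/2 (limma adjusted p = 0.00055) and 1450750_a_at by 0.78 (limma adjusted p = 0.00273). The difference of 1450749_a_at was -0.24, with an adjusted p of 0.102 by limma, and its R6/2 values of 7.65 to 7.97 overlapped the wild-type range of 7.92 to 8.18. 1433422_at differed by 0.08 and 1433423_at by -0.03, and both lay in narrow ranges over all 16 arrays, 6.19 to 6.61 and 4.82 to 5.45. Over the 16 arrays 1447863_s_at and 1450750_a_at correlated with 1455034_at at r = 0.95 and 0.92, and 1450749_a_at did so at 0.78, whereas 1433422_at and 1433423_at were at -0.27 and 0.05. For Nr4a3, 1421080_at (7.57 to 7.93 over all arrays, difference 0.08) and 1421079_at (4.63 to 4.94, difference 0.03) did not pass either. The sources used here do not say which transcript end each probe set reads.

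DREAM+/- against wild type asks what the genotype labelled DREAM+/- does without the disease transgene. By limma 0 of the 10 NR4A probe sets passed, where 2.26% of all probe sets did. Of all 34945 probe sets, 4896 had an unadjusted p under 0.05, and 2 of these were NR4A probe sets. Those 2 were Nr4a1, at -0.62 (interval -1.12 to -0.12, limma adjusted p = 0.229), and Nr4a3 1438796_at, at -0.61 (interval -0.96 to -0.26, limma adjusted p = 0.0686). Both had groups that did not overlap, which held for 5.34% of all probe sets in the lower direction. The Nr4a3 difference passed in fits without R6/2 replicate 1 (limma adjusted p = 0.0383), without R6/2 replicate 4 (limma adjusted p = 0.0317) or without the 2 arrays that stand apart (limma adjusted p = 0.0317). The arrays left out there are not part of this comparison, and the difference stayed at -0.61. In 14 of the 16 fits without 1 array it did not pass, with a limma adjusted p of up to 0.191. With a spread taken only from the 8 arrays compared, Nr4a3 (limma adjusted p = 0.00881) and Nr4a1 (limma adjusted p = 0.0288) both passed. Nr4a2 1455034_at differed by 0.04 (interval -0.20 to 0.28, limma adjusted p = 0.925).

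The comparison of R6/2 x DREAM+/- with DREAM+/- asks what the transgene does in the genotype labelled DREAM+/-. By limma 0 of the 10 NR4A probe sets passed, where 6.93% of all probe sets did. Of all 34945 probe sets, 6788 had an unadjusted p under 0.05, and 1 of these was an NR4A probe set. That was Nr4a2 1455034_at, at -0.31 (interval -0.55 to -0.08, limma adjusted p = 0.114). Nr4a1 differed by -0.40 (interval -0.90 to 0.11, limma adjusted p = 0.408), with no overlap between the groups, as for 5.81% of all probe sets in the lower direction, and it passed with a spread from the 8 arrays compared alone (limma adjusted p = 0.0275). Nr4a3 1438796_at differed by -0.15 (interval -0.50 to 0.20, limma adjusted p = 0.713). Each of these differences was smaller than that between R6/2 and wild type.

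The difference between those 2 effects of the transgene is the interaction. By limma it passed for 0 of the 10 NR4A probe sets and for 0% of all 34945 probe sets, of which 2121 had an unadjusted p under 0.05, and 4 of those were NR4A probe sets. For Nr4a2 1455034_at the interaction was 0.93 (interval 0.60 to 1.26), with an unadjusted p of 2e-05 from limma, the fourth smallest of all probe sets, and a limma adjusted p of 0.175. Over the alternative settings and the fits that leave out 1 array its adjusted p ran from 0.0568 to 0.577. For Nr4a3 1438796_at it was 0.85 (interval 0.35 to 1.35, limma adjusted p = 0.724) and for Nr4a1 0.64 (interval -0.07 to 1.35, limma adjusted p = 0.846).

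Comparing R6/2 x DREAM+/- with R6/2 asks what the genotype labelled DREAM+/- does in diseased striatum, and here Nr4a2 differed and the other members did not pass. By limma 3 of the 10 NR4A probe sets rose and 0 fell, where 7.76% of all probe sets passed and 3.53% rose. All 3 belong to Nr4a2. 1455034_at rose by 0.97 (SE 0.11, interval 0.73 to 1.21, limma adjusted p = 8.1e-05), to 1.96 times the R6/2 level, and stood 62nd by p. 1447863_s_at rose by 0.70 (interval 0.42 to 0.99, limma adjusted p = 0.00527), from R6/2 values of 7.88, 8.40, 8.39 and 8.34 to 8.79, 8.79, 9.14 and 9.10. 1450750_a_at rose by 0.61 (interval 0.28 to 0.93, limma adjusted p = 0.0246), from 7.42, 7.83, 8.03 and 7.84 to 8.31, 8.19, 8.64 and 8.41. The groups of this probe set do not overlap, but its call was lost without R6/2 replicate 1 (limma adjusted p = 0.0755), R6/2 replicate 4 (0.0525) or R6/2 x DREAM+/- replicate 4 (0.0532). Without the 2 arrays that stand apart its difference was 0.40 (limma adjusted p = 0.115).

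1450749_a_at differed by 0.29 in that comparison (interval 0.09 to 0.48, limma adjusted p = 0.064). It was the fourth Nr4a2 probe set whose groups did not overlap, which held for 5.71% of all probe sets in the higher direction. It passed without R6/2 replicate 3 (limma adjusted p = 0.0472) or R6/2 x DREAM+/- replicate 3 (0.0488), and when arrays were shifted to a common median (0.0437). With a brightness filter at the 40th percentile (limma adjusted p = 0.0487) or quantile normalization (0.0488) it passed too. It did not pass in 6 of 9 alternative settings, where the limma adjusted p reached 0.466 and the difference went down to 0.17. Nor did it pass in 14 of 16 fits without 1 array (limma adjusted p up to 0.168). Nr4a1 differed by 0.02 (interval -0.49 to 0.52, limma adjusted p = 0.977) and Nr4a3 1438796_at by 0.24 (interval -0.11 to 0.59, limma adjusted p = 0.413). Whether the change of Nr4a2 itself exceeds those of Nr4a1 and Nr4a3 was not tested.

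The comparison of R6/2 x DREAM+/- with wild type shows where the doubly altered striatum stood. By limma 2 of the 10 NR4A probe sets fell and 0 rose, where 15.6% of all probe sets passed and 8.50% fell. Nr4a1 fell by 1.02 (interval -1.52 to -0.51, limma adjusted p = 0.00742), to 49.5% of wild type, and Nr4a3 1438796_at by 0.76 (interval -1.11 to -0.40, limma adjusted p = 0.00487), to 59.3%. Nr4a2 1455034_at differed by -0.27 (interval -0.51 to -0.04, limma adjusted p = 0.118), at 82.8% of wild type. Its groups did not overlap, as for 7.26% of all probe sets in the lower direction, and with a spread from the 8 arrays compared alone it passed (limma adjusted p = 0.0465). The 3 comparisons with wild type share their control arrays, so their values stand side by side and are not independent.

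**Figure D3:**
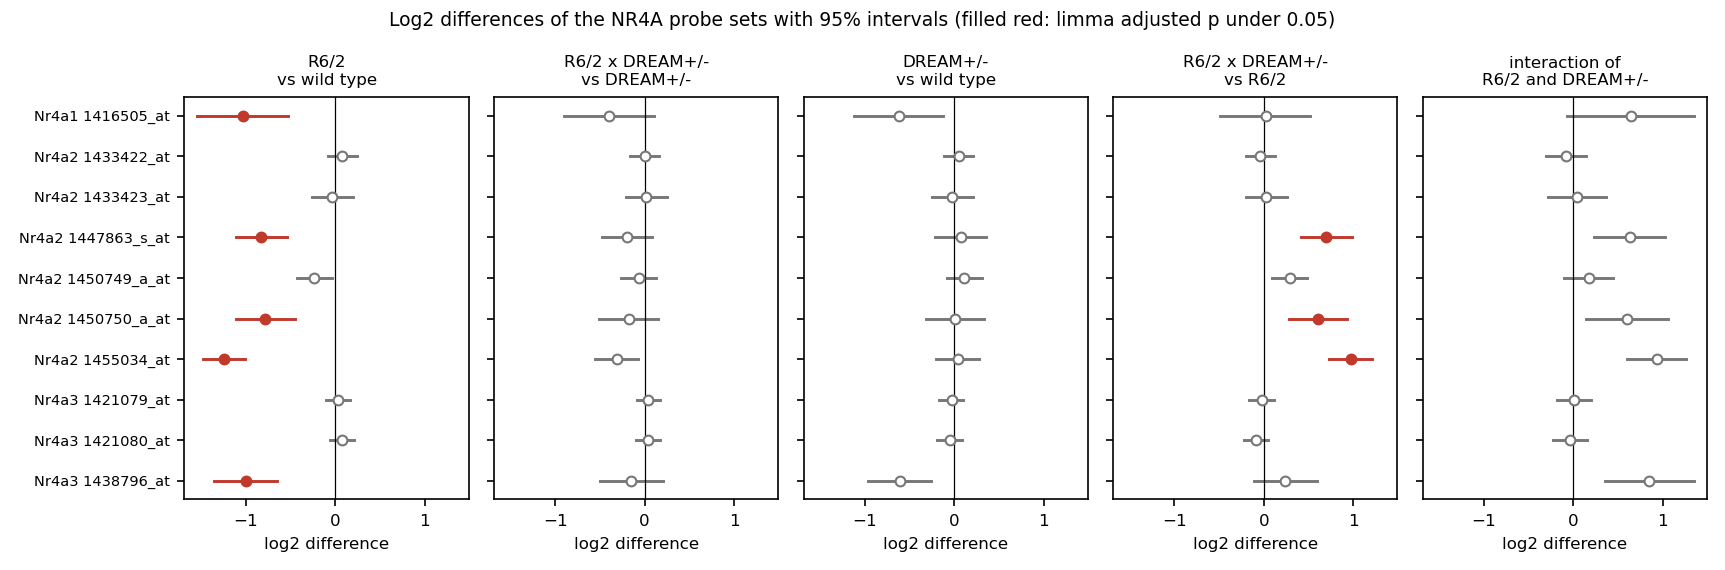
Log2 difference of each NR4A probe set (rows) in 4 comparisons between genotypes and for the interaction, each with its 95% interval from limma; filled red points passed at an adjusted p under 0.05. The points of Nr4a2 1455034_at lie at -1.24 in R6/2 against wild type and at 0.97 in R6/2 x DREAM+/- against R6/2.

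Without R6/2 replicate 1 and R6/2 x DREAM+/- replicate 3, the difference between R6/2 and wild type was -1.25 for Nr4a1 (limma adjusted p = 0.00151), -1.13 for Nr4a2 1455034_at (limma adjusted p = 4.35e-06) and -1.15 for Nr4a3 1438796_at (limma adjusted p = 0.000173). The difference of Nr4a2 1455034_at between R6/2 x DREAM+/- and R6/2 was then 0.83 (limma adjusted p = 0.00049).

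Over the 16 arrays Nr4a1 and Nr4a3 correlated at r = 0.94, and at 0.89 after each genotype's mean was removed. Without R6/2, whose arrays were the most spread, the latter was 0.61 over 12 arrays. Nr4a2 1455034_at correlated with Nr4a1 at 0.40 over the arrays and at -0.41 within genotypes, and with Nr4a3 at 0.50 and -0.55. These are descriptions of 16 arrays that share their normalization.

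Among 11966 other genes above the brightness percentile, those whose pattern over the 16 arrays was most like Nr4a1 were Tiparp (r = 0.933), Fosl2 (0.921), Btbd10 (0.915), Dusp1 (0.905) and Fastkd5 (0.885). Most like Nr4a3 were Fosl2 (0.970), Tiparp (0.955), Btbd10 (0.922), Dnajb5 (0.911) and Fastkd5 (0.907). Fosl2 encodes an AP-1 subunit, Dusp1 a phosphatase of MAP kinases and Tiparp an ADP-ribosyltransferase. Within genotypes these correlations stayed between 0.70 and 0.90. Most like Nr4a2 1455034_at were Zbtb18 (0.934), Nptx1 (0.932), Etl4 (0.929), Fkbp2 (0.924) and Ccn2 (0.922), of which Zbtb18 is a transcriptional repressor needed in cortical development, Nptx1 a secreted synaptic pentraxin and Ccn2 a marker of the deepest cortical layer. Within genotypes Etl4 kept 0.88, Fkbp2 0.71, Nptx1 0.58, Ccn2 0.56 and Zbtb18 0.24.

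Markers of cortical projection neurons, of which Nr4a2 marks the deepest layers, moved with Nr4a2. The mean level of 10 markers of cortical projection neurons was 8.16 to 8.40 in wild type, 8.26 to 8.47 in DREAM+/-, 7.55 to 8.0 in R6/2 and 8.12 to 8.39 in R6/2 x DREAM+/-, so R6/2 alone was low and did not overlap the others. By limma 6 of the 10 fell in R6/2 against wild type, where 7.44% of 18193 genes fell, among them Slc17a7 (-0.92), the vesicular glutamate transporter of cortical neurons, Neurod6 (-0.95) and Tbr1 (-0.63). Between R6/2 x DREAM+/- and R6/2, 5 rose, where 2.91% of all genes did, among them Slc17a7 (1.02) and Neurod6 (0.87). Without the 2 arrays that stand apart those counts were 6 and 2. For 7 markers of the claustrum and deepest cortical layer the mean was 8.73 to 8.86 in wild type, 8.69 to 8.88 in DREAM+/-, 8.34 to 8.52 in R6/2 and 8.43 to 8.66 in R6/2 x DREAM+/-. By limma 3 of these 7 fell in R6/2 against wild type, Ccn2 (-1.56), Cplx3 (-0.92) and Gng2 (-0.38), and Nxph4 rose (0.23). Between R6/2 x DREAM+/- and R6/2 the list had a median of 0.05, 3 of 7 had a negative sign, and only Ccn2 (0.73) and Gng2 (0.38) rose.

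With the cortical marker mean as a covariate, Nr4a2 1455034_at differed by -0.97 between R6/2 and wild type (limma adjusted p = 0.00382). Between R6/2 x DREAM+/- and R6/2 it differed by 0.71 (limma adjusted p = 0.034). The cortical mean of R6/2 overlaps neither of these other groups, so these fits cannot separate the markers from the genotype. The other Nr4a2 probe sets no longer passed: in R6/2 against wild type 1447863_s_at was at -0.32 (limma adjusted p = 0.274) and 1450750_a_at at -0.28 (0.516), and in R6/2 x DREAM+/- against R6/2 they were at 0.22 (0.475) and 0.13 (0.793). With the claustrum and deep-layer mean instead, which does not overlap between R6/2 and wild type, 1455034_at differed by -0.70 in R6/2 (limma adjusted p = 0.131) and by 0.77 in R6/2 x DREAM+/- against R6/2 (limma adjusted p = 0.00133), and 1450750_a_at was at 0.06 in R6/2 (0.932). Nr4a1 kept a difference of -1.28 with the cortical covariate (limma adjusted p = 0.0757) and Nr4a3 1438796_at one of -1.08 (limma adjusted p = 0.0356). With the claustrum covariate they were at -1.55 (limma adjusted p = 0.183) and -1.30 (limma adjusted p = 0.125). The SE of Nr4a1 was 0.24 with no covariate, 0.38 with the cortical and 0.52 with the claustrum covariate. Over all probe sets 4599, 1436 and 74 passed in R6/2 against wild type, in that order. Calls were thus lost over all probe sets as well. In that order the difference of 1447863_s_at was -0.83, -0.32 and -0.07, and that of 1450750_a_at -0.78, -0.28 and 0.06. That of 1455034_at was -1.24, -0.97 and -0.70. For Nr4a1 it was instead -1.03, -1.28 and -1.55, and for Nr4a3 1438796_at -1.0, -1.08 and -1.30. The cause of these shifts was not tested.

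**Figure D4:**
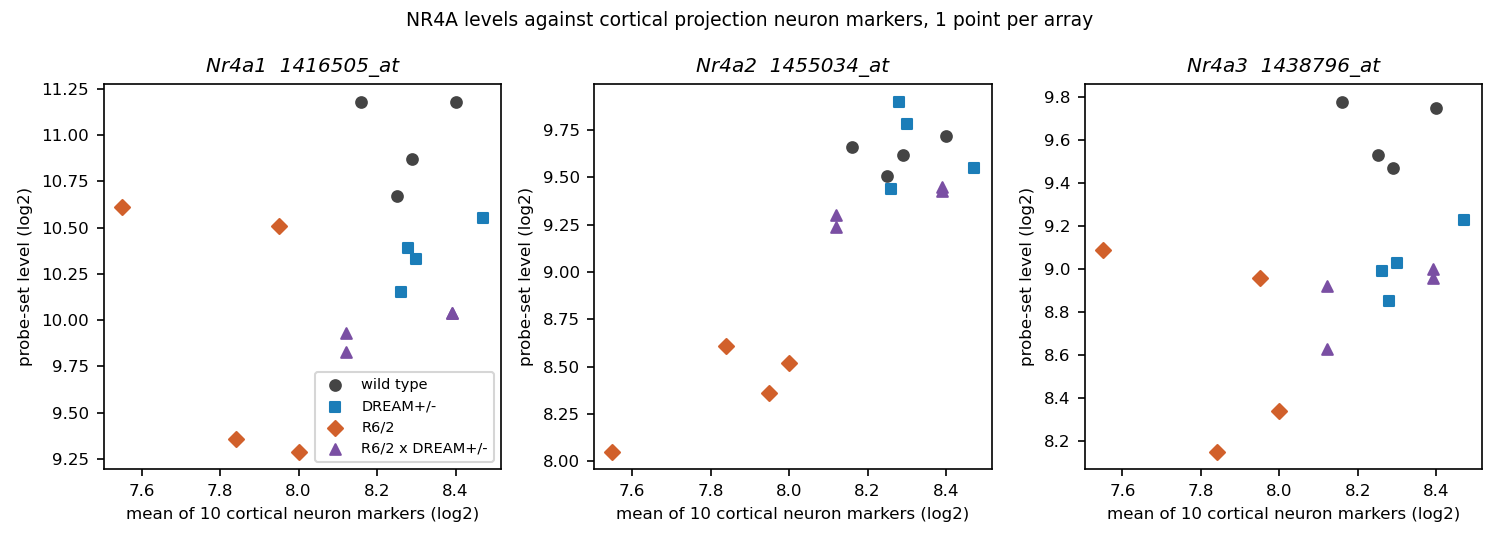
Log2 intensity of Nr4a1, Nr4a2 and Nr4a3 by their brightest probe sets (y axes) against the mean level of the 10 cortical projection neuron markers (x axes) in each of the 16 arrays, coloured by genotype. R6/2 arrays lie at 7.55 to 8.0 on the marker axis, below all others, and hold the lowest Nr4a2 values.

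Markers of the medium spiny neurons themselves overlapped between R6/2 and R6/2 x DREAM+/-. Their mean over 15 genes was 11.99 to 12.05 in wild type, 11.88 to 11.98 in DREAM+/-, 11.35 to 11.49 in R6/2 and 11.26 to 11.59 in R6/2 x DREAM+/-. By limma 11 of the 15 fell in R6/2 against wild type, 12 fell in R6/2 x DREAM+/- against DREAM+/-, and 1 fell and 0 rose in R6/2 x DREAM+/- against R6/2, where 7.44%, 4.71% and 4.73% of all genes fell. Without the 2 arrays that stand apart, 12, 13 and 2 fell. Of 5 markers of midbrain dopamine neurons, 4 lay under the brightness percentile, and the mean of all 5 was 5.27 to 5.66 over the arrays. Of these 0 passed in R6/2 against wild type (median -0.01), and 1 fell and 0 rose in R6/2 x DREAM+/- against R6/2. The part of any of these cell types in the NR4A values was not tested.

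NR4A genes belong to the immediate early genes, and 21 others were read, each by its brightest probe set. By limma 17 of the 21 fell and 0 rose in R6/2 against wild type, with a median difference of -0.68, where 15.7% of 18193 genes passed, 7.44% fell and the median was 0.03. Egr2, a zinc finger activator, fell by 2.69 (limma adjusted p = 4.87e-07), from 8.49 to a mean of 5.8 under the brightness percentile, where the size of a fall is poorly measured, Homer1, a synaptic scaffold gene with an activity-induced short form, by 0.64 (3.6e-07) and Klf10 by 0.87 (7.48e-06). Fosl2, whose pattern was closest to Nr4a3, fell by 1.10 (limma adjusted p = 0.000353). The differences of Fosb (-0.10), Ier2 (-0.12), Btg2 (-0.29) and Klf4 (-0.27) did not pass.

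In DREAM+/- against wild type, 7 of the 21 early genes fell and 0 rose (median -0.41), where 2.10% of all genes passed and 1.17% fell. They were Npas4 (-0.82), Arc (-0.74), Junb (-0.71), Egr2 (-0.86), Fosb (-0.62), Egr4 (-0.51) and Klf4 (-0.41). Fosl2 differed by -0.60 (limma adjusted p = 0.0805). Its pattern over these same arrays was the closest to Nr4a3, so a difference like that of Nr4a3 is no separate result. In R6/2 x DREAM+/- against DREAM+/-, 9 fell and 0 rose (median -0.28), where 8.34% of all genes passed and 4.71% fell. Between R6/2 x DREAM+/- and R6/2, Npas4 fell by 0.65, whereas Klf10 rose by 0.37, Dusp6 by 0.35 and Homer1 by 0.16 (median over the list 0.02), where 7.64% of all genes passed and 2.91% rose. Without the 2 arrays that stand apart, 0 fell and 1 rose in that last comparison, and 17, 9 and 9 fell in the 3 before it, in the order given. Whether the NR4A genes and these early genes share a change was not tested.

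**Figure D5:**
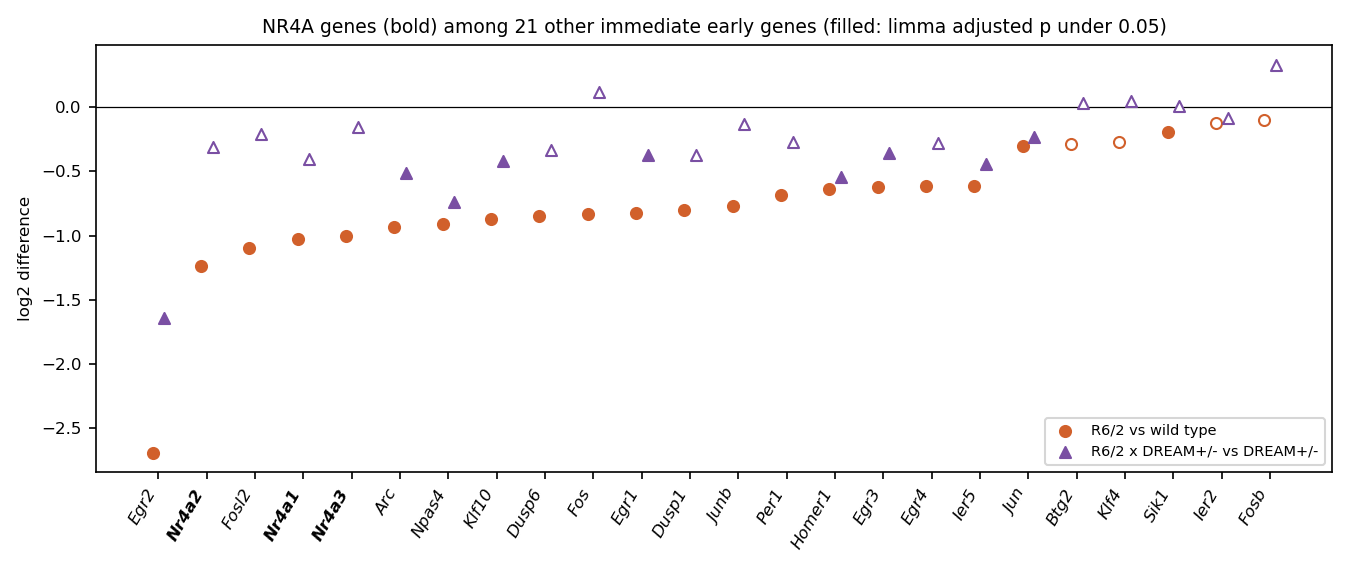
Log2 difference of each of the 21 other immediate early genes beside the 3 NR4A genes in R6/2 against wild type and in R6/2 x DREAM+/- against DREAM+/-; filled points passed limma at an adjusted p under 0.05. In R6/2 against wild type 17 of the 21 early genes lie filled below 0.

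Of the upstream regulators listed as carriers of calcium and cyclic AMP signals to immediate early genes, 15 were read. Whether they act on the NR4A promoters in this tissue was not tested. In R6/2 against wild type 5 fell and 0 rose, where 7.44% of all genes fell: Camk4, a nuclear calmodulin kinase that activates CREB (-0.76, limma adjusted p = 0.000499), Srf, the serum response factor (-0.52, 0.000101), Camk2a (-0.52, 0.00801), and the calcineurin subunits Ppp3r1 (-0.24) and Ppp3ca (-0.22). In DREAM+/- against wild type 0 passed, where 2.10% of all genes did. With the transgene added to DREAM+/-, 4 fell and 0 rose, where 4.71% of all genes fell: Camk4 (-0.47), Srf (-0.38), Ppp3ca (-0.32) and Ppp3r1 (-0.23). In R6/2 x DREAM+/- against R6/2, 2 rose and 0 fell, where 2.91% of all genes rose. These were Camk4, by 0.60 (limma adjusted p = 0.00744), and Creb1, by 0.55 (limma adjusted p = 0.0371).

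Of the RXR partners, Rxrg, the striatal member, fell by 0.64 in R6/2 against wild type (limma adjusted p = 4.08e-05) and by 0.62 in R6/2 x DREAM+/- against DREAM+/- (limma adjusted p = 0.000112). Its difference was 0.01 between R6/2 x DREAM+/- and R6/2, where Nr4a2 rose. Rxra (-0.04) and Rxrb (-0.03) did not pass in R6/2 against wild type. The corepressor Rcor1, which Nr4a2 recruits, differed by -0.05 there (limma adjusted p = 0.658).

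Among 9 genes reported as NR4A targets, 3 fell and 1 rose in R6/2 against wild type by limma, where 7.44% of all genes fell and 8.22% rose. Vip, a neuropeptide, fell by 1.07 (limma adjusted p = 0.000594), Aldh1a1, which makes retinoic acid, by 0.63 (4.4e-06), and Bdnf, a neurotrophin, by 0.36 (0.00159), and Ddc, which makes dopamine from its precursor, rose by 0.37 (0.00486). Between R6/2 x DREAM+/- and R6/2, 2 rose and 1 fell, where 2.91% of all genes rose and 4.73% fell. Vip rose by 0.60 (limma adjusted p = 0.0465) and Aldh1a1 by 0.21 (0.0458), and Th, tyrosine hydroxylase, fell by 0.26 (0.0404). With the transgene added to DREAM+/-, Th fell by 0.50 (limma adjusted p = 0.000521) and Aldh1a1 by 0.43 (0.000294), where 4.71% of all genes fell. In DREAM+/- against wild type Ddc alone passed, rising by 0.33 (limma adjusted p = 0.0371), where 2.10% of all genes passed. Pomc did not pass in any of these 4 comparisons, and Slc6a3, Slc18a2 and Ret lay under the brightness percentile.

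Other nuclear receptors were read by 26 genes outside the NR4A and RXR genes. By limma 2 fell and 0 rose in R6/2 against wild type, Rarb (-0.48, limma adjusted p = 0.000146) and the clock repressor Nr1d1 (-0.56, 0.000772), a share near the 7.44% of all genes that fell. The same 2 fell in R6/2 x DREAM+/- against DREAM+/-, by 0.57 and 0.46, where 4.71% of all genes fell. In DREAM+/- against wild type 0 passed, where 2.10% of all genes did. In R6/2 x DREAM+/- against R6/2 Nr2f6 alone passed, falling by 0.27 (limma adjusted p = 0.0328), where 7.64% of all genes passed. In R6/2 x DREAM+/- against wild type 6 of the 26 fell and 1 rose, or 26.9%, where 16.9% of all genes passed.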

How the data were processed

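Total RNA of whole striatum was hybridised to Affymetrix Mouse Genome 430 2.0 arrays, 1 sample per array. The deposited values are log2 intensities per probe set, made by the authors with RMA and the affy package per the submitters' processing notes, with versions not given in the sources used here. RMA fits a robust summary over probes and makes array distributions alike, which compresses large differences and would hide a shift of all genes. Of 45101 probe sets, 34945 with exactly 1 symbol in the platform annotation were tested, and 932 with several symbols, 9160 with none and 64 controls were left out. Groups came from the sample titles. A model with 1 mean per genotype was fitted to all 16 arrays with limma 3.58.1 in R 4.3.3, with no brightness filter, and p-values were adjusted by Benjamini-Hochberg over all tested probe sets. The fit was run on simulated data with independent normal noise of equal spread in every genotype. That is simpler than these arrays, so the run checks the code only. Intervals are 95%. The number of arrays limits the precision, since arrays give no counts.

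All probe sets of the members were given. Each list gene was represented by its probe set with the highest mean, and up to 8 genes of a list, those with the smallest p, were named per comparison, with all RXR partners, corepressors and reported targets. The 4 early genes that missed the threshold were named after their values were seen. Some genes of these lists are not reported here. Likeness was Pearson's r over the 16 arrays with the brightest probe set of each member, and the 5 highest genes were named. The members and lists were chosen with earlier results of these data known. Upstream sequences are from RefSeq and all 3 members matched. Alternatives changed the normalization, brightness filter, weights, variance model, arrays in the fit, probe set rule, marker covariates and replicate block.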

Additional observations from a re-analysis of the deposited data

Results flagged for a closer look

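Of 40 sets of 4 arrays (10 NR4A probe sets in 4 genotypes), 1 held an array far from the other 3. In R6/2, Nr4a2 1447863_s_at read 7.88 in replicate 1 and 8.34 to 8.40 in the others. Chance sets apart about 1 in 20 such groups. R6/2 replicate 1 is also the array with the low Xist value.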

How the results depend on the processing

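Of 1574 refits of single NR4A differences, 1544 kept their side of the threshold, 16 lost a call, 13 gained one, and 1 called difference reversed: with the claustrum covariate Nr4a2 1450750_a_at was at 0.06 in R6/2 against wild type. Of the 1544, 66 differences that passed in neither fit changed sign. Called NR4A probe sets in R6/2 against wild type numbered 3 of 3 with 1 probe set per gene or the mean of a gene's probe sets, 2 with the cortical covariate and 0 with the claustrum covariate. In R6/2 x DREAM+/- against R6/2 they numbered 1 under the first 3 of these settings. In DREAM+/- against wild type they numbered 1 with array weights or without both arrays that stand apart and 2 in a fit of only the arrays compared, which gave 1 in R6/2 x DREAM+/- against DREAM+/-. In R6/2 x DREAM+/- against wild type the claustrum covariate left 0. Fewer features tested set the counts per gene, and the cause of the other changes was not tested.

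Counts over all probe sets moved by over 1.5 times as follows. With array weights 3741 passed in R6/2 x DREAM+/- against DREAM+/- and 1550 in DREAM+/- against wild type. With only the arrays compared, 1749 passed in R6/2 x DREAM+/- against R6/2 and 2785 in R6/2 x DREAM+/- against wild type. With 1 probe set per gene those became 1614 and 3352, and 452 in DREAM+/- against wild type, and with gene means 1515, 3237 and 508. The cortical covariate gave 1436 in R6/2 against wild type and 659 in R6/2 x DREAM+/- against R6/2. The claustrum covariate gave 74 in R6/2 against wild type, 110 in R6/2 x DREAM+/- against DREAM+/-, 864 in R6/2 x DREAM+/- against wild type and 2 for the interaction, and a common median gave 1 for the interaction.

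Leaving out 1 array at a time, called NR4A probe sets ranged from 5 to 5 in R6/2 against wild type, 0 to 0 in R6/2 x DREAM+/- against DREAM+/-, 0 to 1 in DREAM+/- against wild type, 2 to 4 in R6/2 x DREAM+/- against R6/2, 2 to 2 in R6/2 x DREAM+/- against wild type and 0 to 0 for the interaction. Over all probe sets the ranges, in the same order, were 3567 to 5423, 1372 to 2875, 423 to 1403, 1410 to 3971, 3954 to 6546 and 0 to 1.

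Same-numbered replicates did not all deviate together: the pairs of replicate 1 correlated at 0.06 to 0.33, those of the other numbers at -0.47 to 0.32, and 6 of 16 arrays matched their own number best. The numbers were not taken to pair the arrays. With the replicate number as a block, 5 NR4A probe sets were called in R6/2 against wild type and 3 in R6/2 x DREAM+/- against R6/2. Probe sets near background, 1433423_at and 1421079_at, can show no fall.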
